A study of Homo sapiens with 9 samples.

Results

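The 9 genes described here encode the cyclins, cyclin-dependent kinases and retinoblastoma-family pocket proteins that act in G1 phase, namely CCND3, CDK4, CDK6, CCNE1, CCNE2, CDK2, RB1, RBL1 and RBL2. They were chosen by symbol from a deposited table of 58387 genes, and all 9 were present and passed the filter on low counts that left 16600 genes for testing. Bulk RNA-seq came from lentivirus-infected MM1S, a widely used human cell line derived from multiple myeloma. The groups were knockdown cells given back shRNA-resistant PHF19 (KD_Rescued, n = 2), cells with an shRNA against PHF19 (PHF19_KD, n = 3) and cells with the empty vector (shEV, n = 3). The protein PHF19 associates with the Polycomb complex that methylates histone H3 at silenced genes. In 1 further library the title says knockdown while the shRNA label names shRNA-resistant PHF19. This library, called disputed below, was left out of every test. The labels do not say whether replicates were separate cultures or whether the knockdown cells came from a clone, so the p-values speak for library-to-library spread, possibly a technical one.

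In G1, D-type cyclins bind CDK4 or CDK6, and E-type cyclins bind CDK2. These kinases phosphorylate the pocket proteins RB (from RB1), p107 (from RBL1) and p130 (from RBL2), which otherwise hold E2F transcription factors in check. Genes activated by E2F include E-type cyclins and RBL1 themselves, while p130 is the pocket protein typical of quiescent cells. Deregulated D-type cyclins are common in myeloma.

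Column totals were 23644100 to 23751400 counts for KD_Rescued, 10609800 to 12024900 for PHF19_KD and 16974700 to 22739700 for shEV. Levels are given as normalised CPM, which scales counts by the column total and a TMM factor, and are compared within a gene, since they are not divided by transcript length. The targeted gene, PHF19, had mean levels of 219 ± 1.74 in KD_Rescued (n = 2), 26.9 ± 0.860 in PHF19_KD (n = 3) and 117 ± 11.8 in shEV (n = 3, CPM ± SD). It was lowest in PHF19_KD, which matches the labels, and higher in KD_Rescued than in shEV. All 8 plasma cell markers exceeded a mean of 1 CPM, and none of the 5 T and NK cell markers did, with CD3D and NKG7 at 0 in every library. Between PHF19_KD and shEV the plasma cell markers moved in both directions. Their log2 fold changes ran from -1.07 ± 0.05 for TNFRSF17 to 1.16 ± 0.04 for CD38 (SE). Other features moved with the groups. The share of counts on genes of the mitochondrial genome was 5.08% ± 0.132 for KD_Rescued (SD, n = 2), 9.60% ± 0.518 for PHF19_KD and 3.16% ± 0.279 for shEV (SD, n = 3 each). The summed level of the 5 fibroblast markers, of which LUM was at 0, was 0.957 to 1.54 CPM in KD_Rescued, 9.89 to 10.6 in PHF19_KD and 2.53 to 2.78 in shEV. In PHF19_KD nearly all of it was PDGFRB, at 7.65 ± 0.398 CPM, and COL1A1, at 2.54 ± 0.284 CPM (SD, n = 3). COL1A2 and DCN were at 0 or near it in every library. The 5 monocyte markers summed to 9.67 to 10.4 CPM in KD_Rescued, 26.5 to 31.2 in PHF19_KD and 20.4 to 23.2 in shEV. Most of that sum was CD68, at 9.26 ± 0.487 CPM in KD_Rescued (SD, n = 2), 26.6 ± 2.30 for PHF19_KD and 20.6 ± 1.60 for shEV (SD, n = 3 each), while CD14, LYZ and CSF1R were at 0 or near it in every library. Their part in the results below was not tested, except that removing the mitochondrially encoded genes is among the alternatives. Per the library names, the KD_Rescued libraries were run in lane 2 and all others in lane 6, and sequencing lane cannot be told apart from rescue.

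The first comparison, PHF19_KD against shEV, asked how the G1 machinery differed when PHF19 was depleted. Of the 9 genes 8 fell and 1, RBL2, rose, and the median of the 9 log2 fold changes was -1.41. In this comparison 34.2% of all tested genes were called lower, 34.9% higher and 69.1% either way (quasi-likelihood test in edgeR, threshold 0.05 after Benjamini-Hochberg adjustment), and the median over all tested genes was 0.03. PHF19_KD and shEV libraries did not overlap for any of the 9 genes, against 71.9% of all tested genes without overlap (36.6% higher and 35.3% lower). In bulk RNA, fewer cells in a given phase of the cycle and less RNA per cell cannot be told apart.

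**Figure D1:**
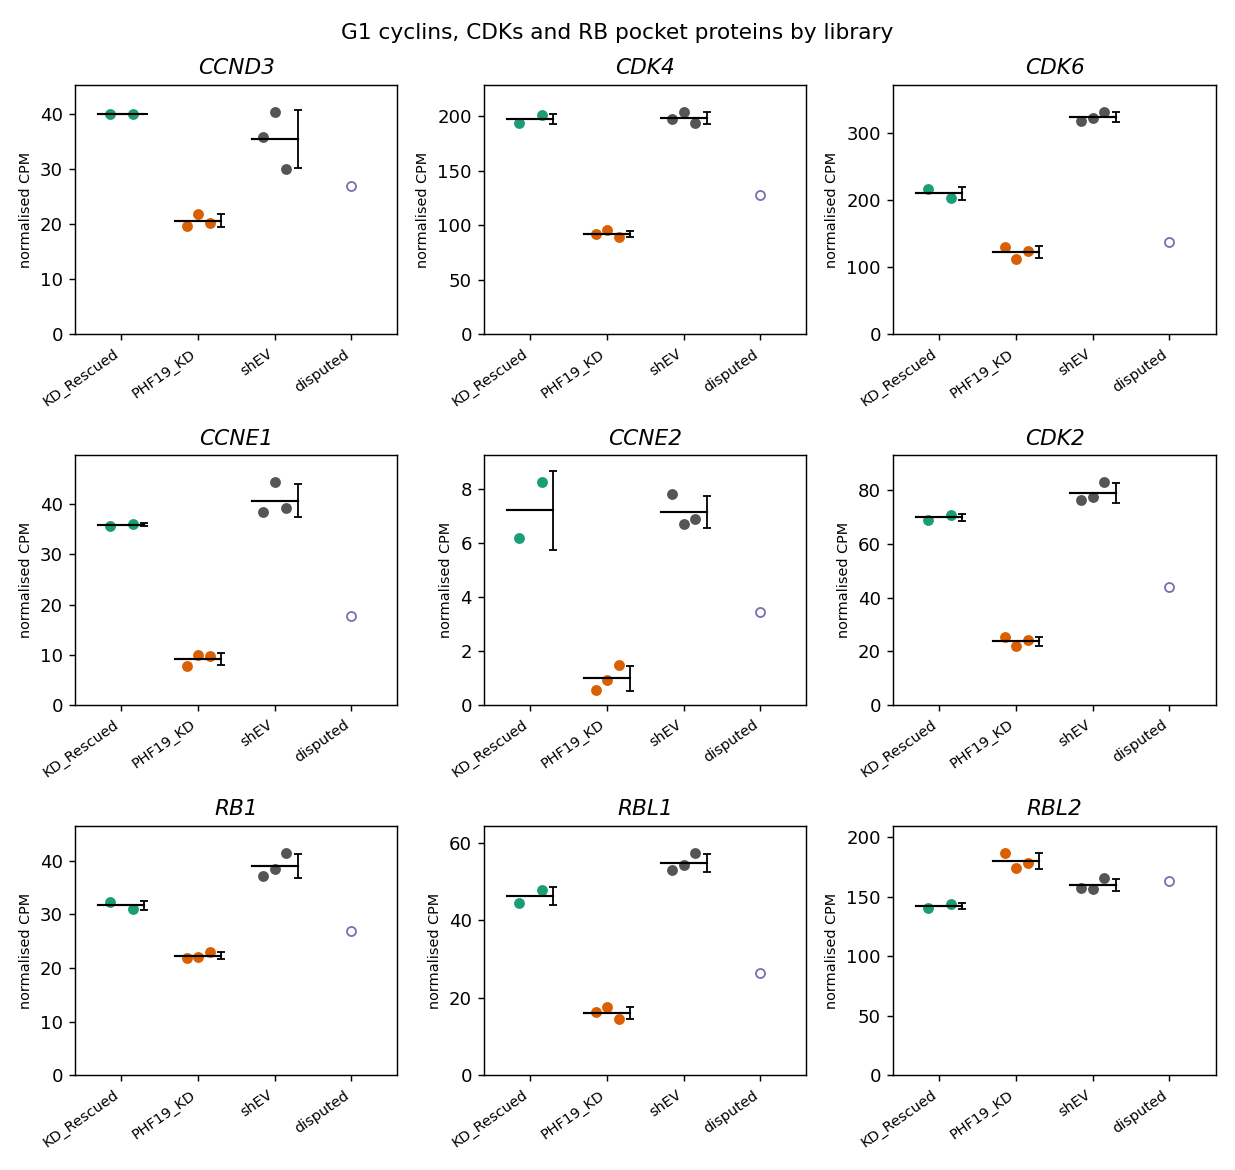
Normalised CPM (vertical axes, from 0) of the 9 genes in each library. Points are libraries of KD_Rescued, PHF19_KD and shEV and the open point is the disputed library, with lines for group means and bars for SD. PHF19_KD is the lowest group in 8 panels and the highest in that of RBL2, and CDK6 in KD_Rescued (203 and 217 CPM) lies below all shEV libraries (317 to 332 CPM).

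Among the D-type cyclin kinases, CDK4 held 91.8, 95.4 and 89.6 CPM in PHF19_KD, against 197, 204 and 194 CPM in shEV. CDK6, its paralog, held 130, 112 and 125 CPM in PHF19_KD, against 317, 323 and 332 CPM in shEV. Both groups were tight and far apart for either kinase. CDK4 fell by 1.10 ± 0.04 on the log2 scale (SE, edgeR adjusted p = 7.39e-10) and CDK6 by 1.41 ± 0.06 (adjusted p = 5.56e-10, edgeR). Their partner CCND3, the D-type cyclin of this set, held 19.7, 21.9 and 20.3 CPM in PHF19_KD, against 35.9, 40.5 and 30.0 CPM in shEV. Every PHF19_KD library lay below the lowest shEV library, shEV replicate 3, and the shEV libraries were more spread for CCND3 than those of PHF19_KD. CCND3 fell by 0.78 ± 0.10 (SE, edgeR adjusted p = 3.39e-05), the smallest fall of the 8.

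The E-type cyclins showed the largest falls. CCNE1 held 7.81, 9.93 and 9.71 CPM in PHF19_KD, against 38.4, 44.4 and 39.3 CPM in shEV. Its knockdown mean was 22.5% of that in shEV, and the log2 fold change was -2.15 ± 0.10 (SE, edgeR adjusted p = 1.66e-09). CCNE2 was the least covered gene of the set, with 0.542, 0.911 and 1.48 CPM in PHF19_KD, against 7.83, 6.70 and 6.89 CPM in shEV. Behind these stood 5.82, 11.0 and 17.1 estimated counts in PHF19_KD and 173, 132 and 117 in shEV. Relative to the group mean, the PHF19_KD libraries differed more among themselves for CCNE2 than for CCNE1, and the log2 fold change of CCNE2 had the widest error of the set, at -2.85 ± 0.25 (SE, edgeR adjusted p = 6.17e-07). CDK2, the kinase of the E-type cyclins, held 25.2, 21.9 and 24.2 CPM in PHF19_KD, against 76.2, 77.6 and 83.0 CPM in shEV. It fell by 1.73 ± 0.07 (SE, edgeR adjusted p = 3.56e-10), to 30.1% of the shEV mean.

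The pocket proteins did not move together. RBL1 held 16.5, 17.5 and 14.5 CPM in PHF19_KD, against 53.0, 54.4 and 57.5 CPM in shEV. It fell by 1.76 ± 0.08 (SE, edgeR adjusted p = 1.30e-09), to 29.4% of the shEV mean. RB1 held 21.8, 22.0 and 23.0 CPM in PHF19_KD, against 37.2, 38.4 and 41.5 CPM in shEV, and fell by 0.81 ± 0.07 (SE, edgeR adjusted p = 4.01e-07). RBL2 held 187, 174 and 179 CPM in PHF19_KD, against 157, 156 and 166 CPM in shEV. Its groups lay close together without overlap, and its rise of 0.17 ± 0.05 (SE, edgeR adjusted p = 0.00504) was small. That call was lost without a filter on low counts (0.08, edgeR adjusted p = 0.301) and with the disputed library counted as PHF19_KD (0.15, adjusted p = 0.0743) or as KD_Rescued (0.20, adjusted p = 0.0709). Over its 20 alternatives the adjusted p was at most 0.301 and the log2 fold change lay between 0.08 and 0.33. The upper value came with upper-quartile scaling, which also moved the median over all tested genes to 0.19 and the share of higher calls to 60.6%, from 50.5%. Relative to those medians RBL2 was 0.14 higher in both scalings. The counts of CDK4, CCNE2 and RBL2 were not whole numbers in all 9 libraries, within a tolerance of 0.01, and those of CDK2, RBL1 and CDK6 in 5, 4 and 2, as happens where a counter shares reads among genes, so these counts are less certain than those of CCND3, CCNE1 and RB1.

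**Figure D2:**
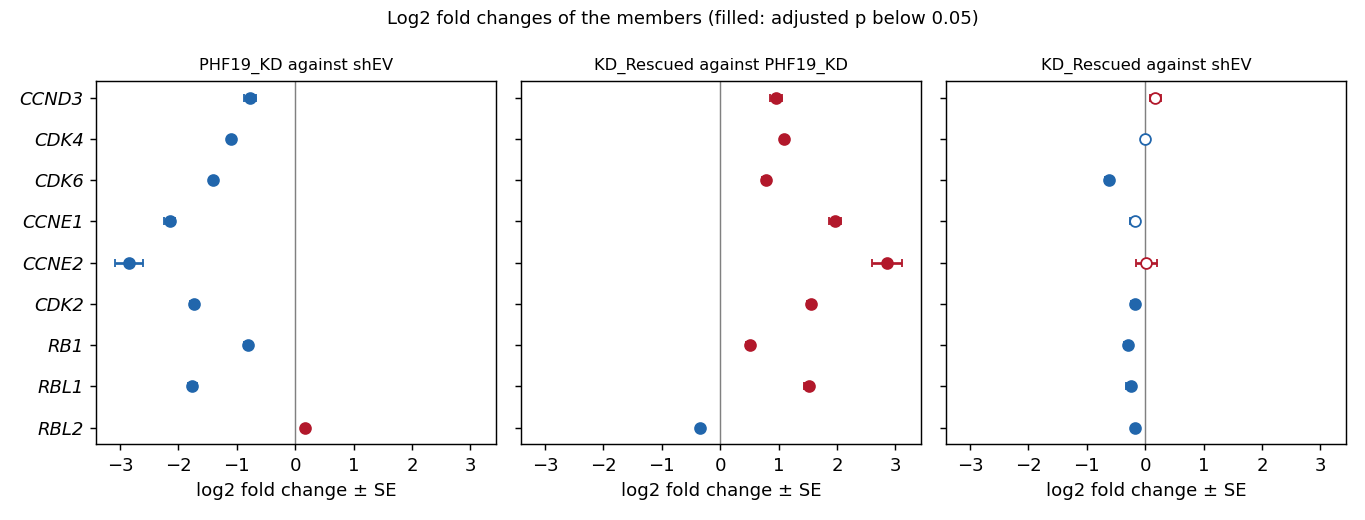
Log2 fold changes with SE (horizontal axis) of the 9 genes in each of the 3 comparisons, filled where the edgeR adjusted p was below 0.05. In PHF19_KD against shEV the values run from -2.85 for CCNE2 to 0.17 for RBL2, and in KD_Rescued against shEV they run from -0.63 for CDK6 to 0.18 for CCND3.

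Promoter sequences were read for the paralogs RBL1 and RBL2, because RBL1 fell while RBL2 rose only slightly and RBL1 is a textbook E2F target. For RBL2, 56.5% of all tested genes had a lower log2 fold change in PHF19_KD against shEV. RefSeq windows on GRCh38.p14 were at hand for 7 of the 9 genes, not for CCNE2 or CDK2, and that of RB1 belongs to an internal start. They run from 250 bases before to 50 after each start. Both strands were searched for the E2F motifs TTTCGCGC and TTTGGCGC, which do not overlap each other in RBL1, and for the cell cycle homology region TTTGAA. Each stretch below holds the 120 bases before the RefSeq start, 5′ to 3′ on the strand of the gene, with E2F motifs in capitals.
RBL1, minus strand, chr20:37095998-37096117: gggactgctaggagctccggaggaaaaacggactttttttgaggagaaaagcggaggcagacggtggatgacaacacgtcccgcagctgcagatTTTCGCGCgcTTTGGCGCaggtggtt
RBL2, plus strand, chr16:53434351-53434470: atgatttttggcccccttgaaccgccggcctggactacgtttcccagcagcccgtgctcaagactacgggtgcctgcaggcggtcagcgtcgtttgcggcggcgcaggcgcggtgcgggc
In RBL1 the motifs began 26 and 16 bases before the start. The first is present in 0.515% of 35116 RefSeq windows of this length, the second in 0.652%, and 7 windows hold both. No window of the other 6 genes held either motif in these letters. Other spellings of the E2F motif were not searched, so this does not show that those windows lack E2F sites. Of the 2 windows of RBL2, the one shown in part held TTTGAA, beginning at base 25 after the start and so outside the stretch, as did 15.2% of all windows. These matches describe the sequence and were not tested as sites. The build named in the labels is hg19, so the coordinates belong to the RefSeq table and not to the deposited counts.

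Ratios between related genes within a library do not depend on scaling between libraries. The log2 ratio of RBL2 to RBL1 counts was 3.50, 3.31 and 3.62 in PHF19_KD, against 1.57, 1.52 and 1.53 in shEV. The ratio was thus 3.83-fold higher in PHF19_KD, with no overlap (exact permutation test, two-sided p = 0.1, the smallest that 3 against 3 allows). For RB1 to RBL1 it was 0.40, 0.33 and 0.66 in PHF19_KD, against -0.51, -0.50 and -0.47 in shEV, a 1.94-fold higher ratio (exact permutation p = 0.1). For CDK6 to CDK4 it was 0.50, 0.24 and 0.47 in PHF19_KD, against 0.69, 0.66 and 0.78 in shEV, so it was lower in every PHF19_KD library (exact permutation p = 0.1). For CCNE2 to CCNE1 it was -3.74, -3.39 and -2.68 in PHF19_KD, against -2.29, -2.72 and -2.51 in shEV, and the groups overlapped (exact permutation p = 0.2). Over the 12 ratio tests of the 3 comparisons the Benjamini-Hochberg adjusted p was at least 0.171, and 0 of the 12 could pass the threshold of 0.05 at these group sizes. Divided by the length of the principal GENCODE 29 transcript (4793 bases for RB1, 5684 for RBL1 and 4906 for RBL2), RBL2 made up 83.7%, 82.2% and 83.2% of the summed pocket protein CPM per kb in PHF19_KD, against 65.2%, 64.4% and 64.3% in shEV. RBL1 made up 6.36%, 7.16% and 5.83% in PHF19_KD, against 19.0%, 19.4% and 19.3% in shEV, so RBL2 had the highest and, in PHF19_KD, RBL1 the lowest level per length of the 3. Which transcripts the cells used was not measured.

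**Figure D3:**
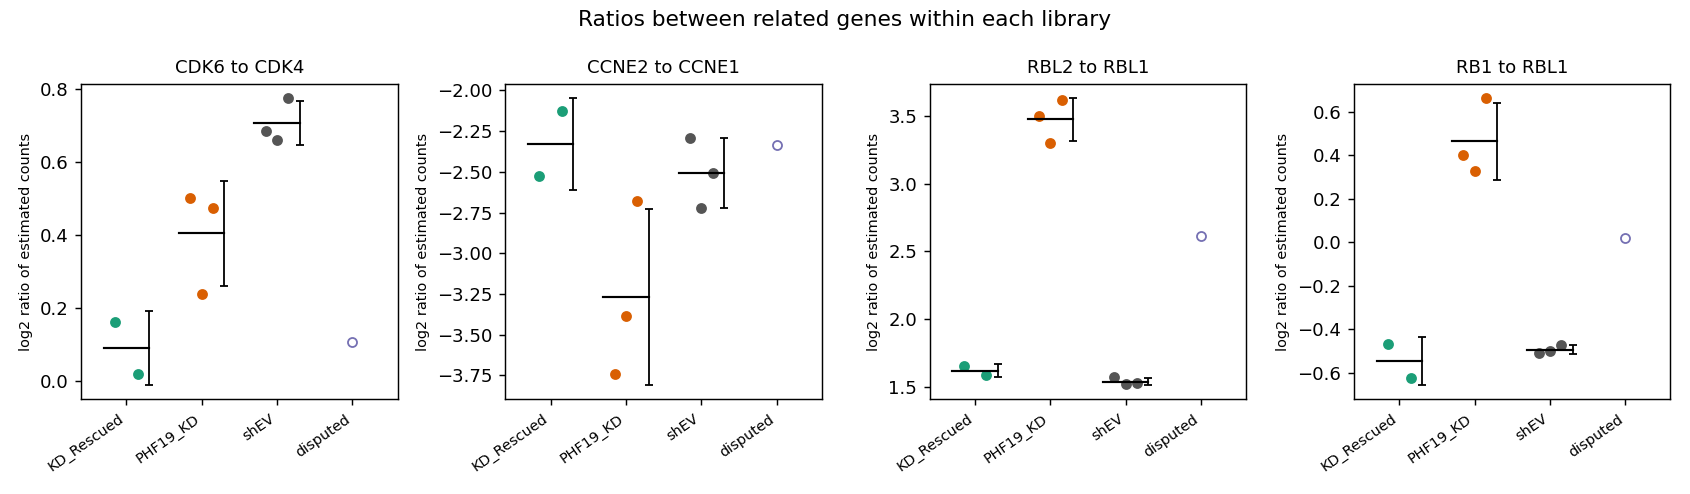
Log2 ratio of estimated counts (vertical axes) of CDK6 to CDK4, CCNE2 to CCNE1, RBL2 to RBL1 and RB1 to RBL1 in each library of KD_Rescued, PHF19_KD and shEV, with the disputed library open, lines for group means and bars for SD. The RBL2 to RBL1 ratio stands at 3.31 to 3.62 in PHF19_KD and at 1.52 to 1.57 in shEV, and the CDK6 to CDK4 ratio is lowest in KD_Rescued among the 3 groups.

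Other genes of the pathway, from lists chosen with earlier results of these data known, are given by counts for PHF19_KD against shEV, to be read beside the 34.2% of genes called lower and 34.9% called higher. Both other D-type cyclins fell, with log2 fold changes of -2.02 ± 0.05 for CCND2 and -1.80 ± 0.15 (SE) for CCND1. CCND1 held 2.72 ± 0.223 CPM in PHF19_KD, against 9.51 ± 0.540 CPM in shEV (SD, n = 3 each), and both genes share reads with other genes. Of 10 E2F and DP factors 9 fell, with a median of -1.18. The activators E2F1 and E2F2 changed by -3.82 ± 0.09 and -3.57 ± 0.07, and only E2F5, a repressive partner of p130 that shares reads, was not called (0.22 ± 0.13, adjusted p = 0.155, edgeR), though it was called higher with upper-quartile scaling or a filter at 5 CPM. All 18 E2F target genes of S phase fell, with a median of -3.34, including RRM2 of nucleotide synthesis (-4.70 ± 0.05) and the helicase gene MCM4 (-3.91 ± 0.05), both of which share reads. Of 7 genes of the MuvB core, which pairs with p107 or p130 in repression and with B-MYB or FOXM1 in activation, and of those partners, 6 fell and 1 rose. MYBL2, the gene of B-MYB, changed by -4.16 ± 0.08 and FOXM1, which shares reads, by -2.90 ± 0.06, while LIN37, which shares reads too, changed by 0.53 ± 0.18, a call lost in 6 alternatives. These were the fits without shEV replicate 3, without PHF19_KD replicate 1 and without PHF19_KD replicate 3 (edgeR adjusted p = 0.0510, 0.0698 and 0.0800), that with DESeq2 (0.0519), and those with the disputed library counted as PHF19_KD or as KD_Rescued (edgeR, 0.191 and 0.0847).

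Of 6 tested CDK inhibitor genes 3 rose and 0 fell, while CDKN2B did not pass the filter. CDKN1A, an inhibitor gene induced by p53, held 63.6 ± 1.94 CPM in PHF19_KD, against 35.1 ± 2.44 CPM in shEV (SD, n = 3 each), a change of 0.85 ± 0.06 (log2, SE) that lost its call with the disputed library counted as KD_Rescued (edgeR adjusted p = 0.0642). CDKN1B, another inhibitor of CDK2, changed by 0.36 ± 0.04. CDKN1C, named after its value was seen, changed by 1.39 ± 0.19. Among 5 genes for CDK-activating enzymes and the CDK4 chaperone, 2 fell and 0 rose, with 2 rises under upper-quartile scaling or a filter at 5 CPM. The 2 that fell were the phosphatase gene CDC25A (-4.11 ± 0.10) and MNAT1 of the CDK-activating kinase (-0.45 ± 0.10). Of 10 genes of G1 cyclin turnover 6 fell and 1 rose, with 3 rises under upper-quartile scaling or a filter at 5 CPM, 2 with column totals only and 0 without a filter. CKS1B, a cofactor in degrading the CDKN1B protein, changed by -2.32 ± 0.06 and CUL1, the ligase scaffold, by -0.68 ± 0.04, and both share reads. FBXW7, which targets cyclin E for degradation, changed by 0.26 ± 0.06, a call lost without a filter (edgeR adjusted p = 0.0562). Cyclins and CDKs of transcription, which do not drive the cycle, fell in 5 and rose in 2 of 9 cases, with a median of -0.17, and 1 of the rises, CDK13, was lost in 10 alternatives. CDK9, the elongation kinase, changed by 0.57 ± 0.07 and CCNC, a cyclin of the Mediator kinase module that shares reads, by -0.84 ± 0.06.

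**Figure D4:**
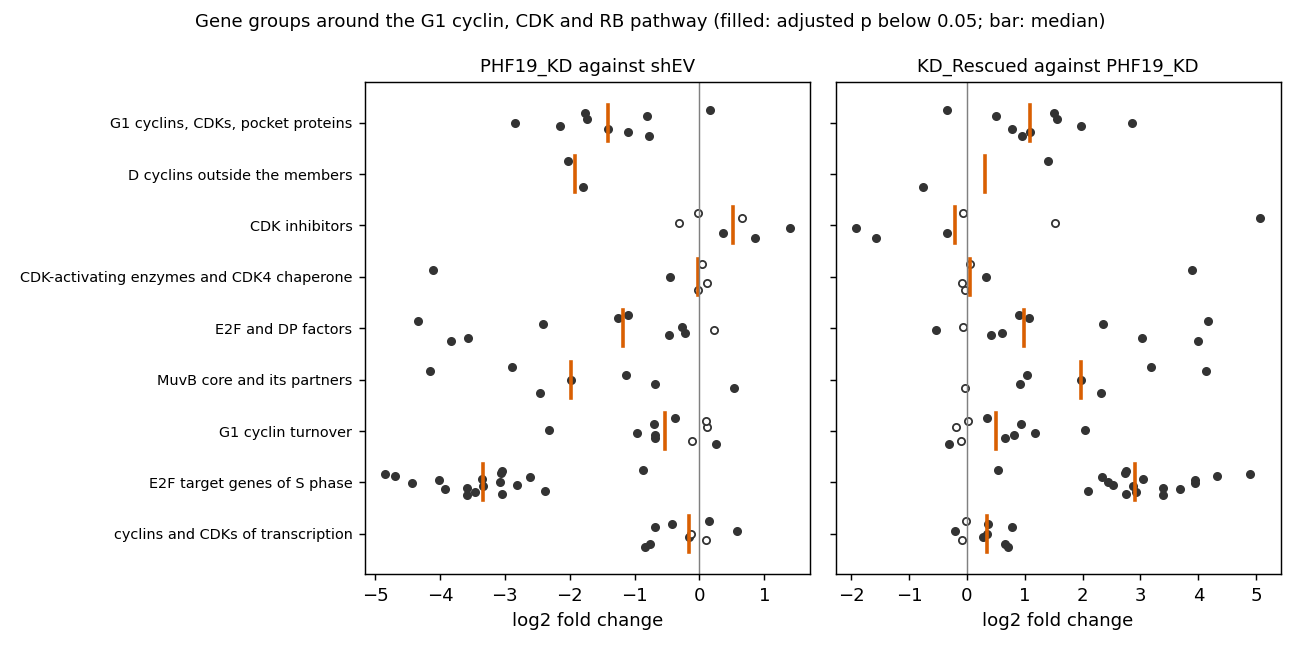
Log2 fold changes (horizontal axes) of the genes of each pathway list in PHF19_KD against shEV and in KD_Rescued against PHF19_KD. Each point is a gene, filled where the edgeR adjusted p was below 0.05, and bars are list medians. In the first panel the medians run from -3.34 for E2F target genes of S phase to 0.51 for CDK inhibitors, with -1.41 for the 9 G1 genes. The CDK inhibitor median depends on CDKN2C (0.66 ± 2.09, SE), which had 0, 0 and 2 counts in PHF19_KD and likewise in shEV.

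The second comparison, KD_Rescued against PHF19_KD, asked how the genes differed between cells given back PHF19 and knockdown cells, whose libraries also differ in sequencing lane. It shares the PHF19_KD libraries with the first, so opposite signs are not independent evidence. Here 8 of the 9 genes rose and RBL2 fell, and the median of the 9 log2 fold changes was 1.10, against 0.03 over all tested genes, while 33.9% of all tested genes were called higher, 29.5% lower and 63.4% either way. None of the 9 genes had overlapping groups, against 77.2% of all tested genes without overlap (40.8% higher and 36.4% lower). CCNE2 held 6.18 and 8.25 CPM in KD_Rescued, against 0.542, 0.911 and 1.48 CPM in PHF19_KD. Its rise of 2.86 ± 0.26 (log2, SE, edgeR adjusted p = 1.11e-06) was the largest of the 9. CCNE1 held 35.7 and 36.1 CPM in KD_Rescued, against 7.81 to 9.93 CPM in PHF19_KD, a rise of 1.97 ± 0.10 (edgeR adjusted p = 8.54e-09). CDK2 held 69.0 and 70.7 CPM in KD_Rescued, against 21.9 to 25.2 CPM in PHF19_KD, and rose by 1.56 ± 0.07 (edgeR adjusted p = 2.23e-09). For these cyclin E genes and their kinase, both rescued libraries lay well above every knockdown library.

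CDK4 held 194 and 201 CPM in KD_Rescued, against 89.6 to 95.4 CPM in PHF19_KD, and rose by 1.10 ± 0.05 (log2, SE, edgeR adjusted p = 2.09e-09). CCND3 held 40.1 CPM in both KD_Rescued libraries, against 19.7 to 21.9 CPM in PHF19_KD, and rose by 0.96 ± 0.11 (edgeR adjusted p = 1.29e-05). CDK6 held 217 and 203 CPM in KD_Rescued, against 112 to 130 CPM in PHF19_KD, and rose by 0.78 ± 0.06 (edgeR adjusted p = 2.92e-07). Both KD_Rescued libraries lay above every PHF19_KD library for all 3 of these genes. RBL1 held 44.6 and 47.9 CPM in KD_Rescued, against 14.5 to 17.5 CPM in PHF19_KD, and rose by 1.51 ± 0.08 (edgeR adjusted p = 1.25e-08). RB1 held 32.3 and 31.0 CPM in KD_Rescued, against 21.8 to 23.0 CPM in PHF19_KD, and rose by 0.51 ± 0.07 (edgeR adjusted p = 6.52e-05). RBL2 held 140 and 144 CPM in KD_Rescued, against 174 to 187 CPM in PHF19_KD, and fell by 0.34 ± 0.05 (edgeR adjusted p = 8.81e-05). This fall of RBL2 kept its call in all 20 alternatives, with a highest adjusted p of 0.0151. Upper-quartile scaling moved the median over all tested genes to -0.12, from 0.03, and the share of higher calls to 42.1%, from 53.4%, and RBL2 was lower in that scaling too (-0.49).

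In log2, the ratio of RBL2 to RBL1 stood at 1.65 and 1.59 in KD_Rescued, against 3.31 to 3.62 in PHF19_KD (exact permutation test, two-sided p = 0.1, the smallest that 2 against 3 allows). That of CDK6 to CDK4 was 0.16 and 0.02 in KD_Rescued, against 0.24 to 0.50 in PHF19_KD (exact permutation p = 0.2). RBL2 made up 66.2% and 66.3% of the pocket protein CPM per kb in KD_Rescued, against 82.2% to 83.7% in PHF19_KD. In the pathway around these genes, 18 of 18 E2F target genes, 8 of 10 E2F and DP factors and 6 of 7 MuvB genes rose, and E2F5, which shares reads, was the factor that fell (-0.53 ± 0.14, log2, SE; not called without KD_Rescued replicate 2, edgeR adjusted p = 0.0998). Of the 6 tested CDK inhibitor genes 3 fell, CDKN1A by 1.56 ± 0.07 (not called with the disputed library counted as KD_Rescued, edgeR adjusted p = 0.0747), and 1 rose, CDKN2C. CDKN2C, named after its values were seen, rested on few reads, with 87 and 18 counts in KD_Rescued, against 0, 0 and 2 in PHF19_KD. It passed the filter on low counts only through KD_Rescued, the group where it was high, so its call carries no weight. The D-type cyclin genes outside the set parted. CCND2 rose by 1.40 ± 0.05, whereas CCND1 fell by 0.75 ± 0.19, to 1.61 ± 0.355 CPM for KD_Rescued (SD, n = 2), against a PHF19_KD mean of 2.72 ± 0.223 (SD, n = 3). The call of CCND1 was lost without KD_Rescued replicate 1 (edgeR adjusted p = 0.0663).

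The third comparison, KD_Rescued against shEV, asked how far the rescued cells stood from the control. PHF19 itself was not at the control level but higher, by 0.91 ± 0.07 (log2, SE, edgeR adjusted p = 2.46e-06). That call was lost with the disputed library counted as PHF19_KD or as KD_Rescued (edgeR adjusted p = 0.105 and 0.380). Of the 9 genes 5 fell and 4 were not called, where 19.1% of all tested genes were called lower, 20.7% higher and 39.8% either way, and the median log2 fold change was -0.17 over the 9 genes and 0.02 over all tested genes. CDK6 stood lowest relative to shEV. It held 217 and 203 CPM in KD_Rescued, against 317, 323 and 332 CPM in shEV, which is 64.8% of the shEV mean. It changed by -0.63 ± 0.06 (log2, SE, edgeR adjusted p = 1.25e-05), was called in all 20 alternatives, and 6.68% of all tested genes had a lower log2 fold change. The log2 ratio of CDK6 to CDK4 was 0.16 and 0.02 in KD_Rescued, against 0.69, 0.66 and 0.78 in shEV (exact permutation p = 0.1).

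The other falls were small, and their calls depended on the libraries used. RB1 changed by -0.30 ± 0.07, RBL1 by -0.25 ± 0.07, CDK2 by -0.17 ± 0.06 and RBL2 by -0.17 ± 0.05 (log2, SE; edgeR adjusted p = 0.00403, 0.0156, 0.0418 and 0.0183). Their levels were 81.1%, 84.1%, 88.6% and 88.9% of the shEV means. With each library left out, their log2 fold changes stayed below 0. In the same order they ran from -0.33 to -0.26, -0.31 to -0.20, -0.20 to -0.14 and -0.19 to -0.14. Without KD_Rescued replicate 1 the calls of RBL1, RBL2 and CDK2 were lost (edgeR adjusted p = 0.154, 0.136 and 0.211). Without KD_Rescued replicate 2 those of RB1, RBL2 and CDK2 were lost (edgeR adjusted p = 0.0562, 0.0754 and 0.130), so that 2 of the 9 genes were called either way. The call of CDK2, lost in 10 of 20 alternatives, was also lost without shEV replicate 2 or PHF19_KD replicate 3 (adjusted p = 0.0508 and 0.0616, edgeR). CDK4 (-0.01 ± 0.05), CCNE2 (0.02 ± 0.18), CCND3 (0.18 ± 0.10) and CCNE1 (-0.18 ± 0.08) were not called (edgeR adjusted p = 0.924, 0.952, 0.190 and 0.105). For CCNE2 the error leaves room for a difference in either direction. CCNE1 was 35.7 and 36.1 CPM in KD_Rescued, against 38.4, 44.4 and 39.3 CPM in shEV, without overlap. It was called as lower without shEV replicate 3, with DESeq2 size factors and without a filter (adjusted p = 0.0330, 0.0430 and 0.0162, edgeR). CCND3 was called as higher without shEV replicate 2 (adjusted p = 0.0266, edgeR). For 6 of the 9 genes, all of them lower, KD_Rescued and shEV libraries were without overlap, as they were for 61.8% of all tested genes (32.5% higher and 29.2% lower).

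Around these genes, 14 of the 18 E2F target genes of S phase were lower in KD_Rescued than in shEV, with a median of -0.30, beside the 19.1% of genes called lower, but 1 was with the disputed library counted as PHF19_KD and 2 with it counted as KD_Rescued. Of the 10 E2F and DP factors 3 were lower and 1 higher. Both D-type cyclins outside the set were lower, CCND2 with 332 ± 17.0 CPM in KD_Rescued (SD, n = 2) and 512 ± 18.7 CPM in shEV (SD, n = 3), a log2 fold change of -0.63 ± 0.05 (SE), and CCND1 with one of -2.55 ± 0.16. Of the 6 CDK inhibitor genes 1 was lower, CDKN1A (-0.71 ± 0.07), and 1 was called higher, CDKN2C. CDKN2C had 87 and 18 counts in KD_Rescued, against 0, 0 and 2 in shEV. It passed the filter on low counts only through KD_Rescued, so its call carries no weight.

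In the disputed library PHF19 stood at 63.8 CPM, 54.8% of the shEV mean. For 8 of the 9 genes its level lay above every PHF19_KD library and below every shEV library. The share of all tested genes in that position was not computed, so whether the count is particular to these genes is not known. PHF19_KD and shEV libraries did not overlap for 71.9% of all tested genes. In 35.3% of all tested genes PHF19_KD was the lower group without overlap, and only such genes can hold that position. CCNE1 stood at 17.6 CPM, CCNE2 at 3.44, CDK2 at 44.0 and RBL1 at 26.5, or 43.3%, 48.3%, 55.8% and 48.3% of the shEV means. CDK4 stood at 128 CPM, CCND3 at 27.0, RB1 at 26.9 and CDK6 at 138, the last close to the highest PHF19_KD library at 130. RBL2, at 163 CPM, lay within the range of the shEV libraries. The log2 ratio of CDK6 to CDK4 was 0.11 in the disputed library, which is within the range of the KD_Rescued libraries and below all PHF19_KD and shEV libraries.

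The genes whose profile over the 9 libraries was most like that of a G1 gene were found by the root mean square difference of mean-centred log2 CPM, among 9444 tested genes with a mean of at least 10 CPM. The nearest to CDK6 was the gap junction gene GJA1 (0.07), to CDK4 ILF2 (0.05), to CCND3 the coatomer subunit gene COPE (0.04), to CDK2 the glycyl-tRNA synthetase gene GARS (0.05), to RB1 API5 (0.03) and to RBL2 AFF1 (0.04). The nearest to CCNE1 was the tubulin gene TUBA1C (0.11), and to RBL1 an entry listed as pk, followed by the nucleoporin gene NDC1 (both 0.09). For the thinly covered CCNE2, set against 9445 genes, the nearest was the cystine transporter gene SLC7A11, at a wider distance of 0.25, followed by TK1 (0.27). Among the 9 themselves the closest pair was CDK2 and RBL1, at 0.12, and the most distant was CCNE2 and RBL2, at 1.44.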

How the data were processed

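The authors deposited estimated counts for 9 libraries in 1 table, and its column totals differ, so the libraries are unscaled. The submitters' processing notes list CASAVA, RSEM and hg19 with no role for any, while the table's name refers to salmon. Annotation, filters and strandedness: not given in the sources used here. Counts were rounded and tested with edgeR 4.0.16 in R 4.3.3 (filterByExpr, TMM, robust dispersions, glmQLFit, glmQLFTest) over the 8 libraries with undisputed labels, with Benjamini-Hochberg adjustment over 16600 genes and a threshold of 0.05. The test was checked on simulated data. SE was taken as the size of the log2 fold change over the root of the F statistic. Ratios used counts plus 0.5 and exact permutation tests. Alternatives were other scalings, filters, DESeq2 1.42.0, limma-voom 3.58.1, omitted libraries, the disputed library reassigned, and a replicate block. The genes and lists were chosen with earlier results of these data known. All 9 genes, PHF19, at most 4 genes a list (the 2 called rises and 2 called falls with the lowest adjusted p in PHF19_KD against shEV) and the 3 nearest profiles a gene could be named, and the text gives a part of them. E2F5, CDKN1C and CDKN2C were added after their values were seen. No replicate pair agreed within counting noise (chi-square per degree of freedom from 1.37 to 2.25, but 8.14 and 9.15 for the pairs with shEV replicate 3), so no libraries were merged as 1. This does not show that they are separate cultures. The level of 1 further marker list, which also differed between the groups, is not reported here.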

Additional observations from a re-analysis of the deposited data

How the results depend on the processing

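Over 20 alternatives (19 for CCNE2, which the filter at 5 CPM removed), each of the 8 falls in PHF19_KD against shEV and each of the 9 calls in KD_Rescued against PHF19_KD kept its direction and call. The rise of RBL2 in the first comparison was the exception, so 0 genes were called higher without a filter and with the disputed library counted either way. In KD_Rescued against shEV the called genes numbered 5, but 3 with column totals only and 2 with the disputed library counted as PHF19_KD or as KD_Rescued, and they ranged from 2 to 6 when each library was left out (0 to 1 higher, 2 to 6 lower). Over all genes that comparison made 6599 calls, 4047 and 2464 with the disputed library counted as PHF19_KD or KD_Rescued, and 4253 and 4048 without KD_Rescued replicate 1 or 2, and KD_Rescued against PHF19_KD made 10526, and 6207 with it counted as KD_Rescued. In KD_Rescued against shEV, uncalled values near 0 changed sign. CCND3 was at -0.015 with the disputed library counted as KD_Rescued. CDK4 was at 0.040 with column totals only, 0.020 with a filter at 5 CPM, and -0.038 to 0.013 with each library left out. CCNE2 was at -0.029 with DESeq2, -0.030 with its size factors in edgeR, -0.034 without a filter, -0.027 and -0.26 with the disputed library counted as PHF19_KD or KD_Rescued, -0.010 without mitochondrially encoded genes, -0.0079 with the groups compared alone, and -0.21 to 0.21 with each library left out. CCND1 in KD_Rescued against PHF19_KD was at 0.0087 with the disputed library counted as KD_Rescued. The log2 ratio of RB1 to RBL1 in KD_Rescued minus shEV (-0.05) was 0.14 with the disputed library counted as KD_Rescued and -0.13 to 0.028 with each library left out, and that of CCNE2 to CCNE1 (0.18) was -0.018 to 0.38. With the disputed library counted as PHF19_KD, the differences of RBL2 to RBL1 and RB1 to RBL1 in PHF19_KD minus shEV were 1.72 and 0.85 (exact permutation p = 0.0286 for both, as 4 against 3 allows a smaller p). Samples with the same replicate number did not deviate together (correlations from -0.01 to 0.03), so no pairing by number was seen. A pairing that is weak beside the spread among replicates is not excluded. With a replicate block the calls of the 9 genes were the same except for CDK2 in KD_Rescued against shEV (-0.14, adjusted p = 0.0866). The causes were not tested. Of the 8 libraries tested, those of PHF19_KD had the lowest column totals, and CCNE2 had the fewest counts of the 9 genes.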
